A study of Mus musculus with 8 samples.

Results

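This account concerns 10 genes of lymphatic valve formation and flow sensing (Foxc1, Foxc2, Gata2, Nfatc1, Piezo1, Klf2, Klf4, Celsr1, Vangl2 and Fat4) in endothelial cells sorted from mouse colon. The genes were taken as a set by name, and every probe set annotated with exactly 1 of these symbols was kept, which gave 20 probe sets of the 45037 that are not controls, for 10 of 18193 named genes. Foxc2, Piezo1, Klf2 and Celsr1 each had 1 probe set and the other 6 genes had several.

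RNA was measured on 8 expression arrays, of which 4 held lymphatic endothelial cells (LEC) and 4 held endothelial cells of blood vessels (BEC). Each LEC sample had a BEC sample from the same mouse, and the 4 mice were healthy, untreated C57BL/6J animals aged 8 weeks, of which mice 1 to 3 were female and mouse 4 was male. The sort used stains for CD31, CD45.2 and podoplanin, and the pairs were picked for the quality of their material, so they are not a random draw of mice. No mutant or treated animals were included, and flow was not varied.

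Lymphatic valves are leaflets of endothelium inside collecting vessels that keep lymph from running backward. Where lymph flow is disturbed, endothelial cells of the vessel wall raise the transcription factors PROX1, FOXC2 and GATA2, activate calcineurin and NFATC1, turn across the vessel axis and build the leaflet. Mechanically gated channels such as PIEZO1 admit calcium when the membrane is stretched, laminar shear induces KLF2 and KLF4 through the kinase ERK5 and MEF2 factors, and the planar polarity proteins CELSR1 and VANGL2 together with the giant cadherin FAT4 orient cells within the sheet. In humans, mutations in FOXC2, GATA2, PIEZO1, CELSR1 and FAT4 cause inherited lymphoedema.

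In LEC as against BEC, Foxc2 was higher, 23.4-fold in the means with values raised to background, and Fat4 was 6.29-fold lower. The other 8 genes did not pass the test. The test was limma's moderated test on the deposited log2 signals, 1 probe set a gene (the brightest over the 8 arrays), with p-values adjusted over 13259 genes by Benjamini-Hochberg, and a gene was called at an adjusted p under 0.05. All 20 probe sets passed the filter on low values. Over all genes tested, 1.76% were called higher in LEC and 2.31% lower, 4.07% in all, against 2 of 10 here. The median difference, LEC minus BEC, was -0.46 over the 10 genes and 0.08 over all genes on the log2 scale. For 4 of the 10 genes the LEC and BEC arrays did not overlap (Foxc2 with LEC above, Gata2, Klf2 and Fat4 with LEC below), against 10.4% of all genes (5.19% with LEC above and 5.19% with LEC below). An unadjusted p under 0.05 was reached by 6 of the 10 (the same 4 with Foxc1 and Celsr1), against 14.4% of all genes.

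**Figure D1:**
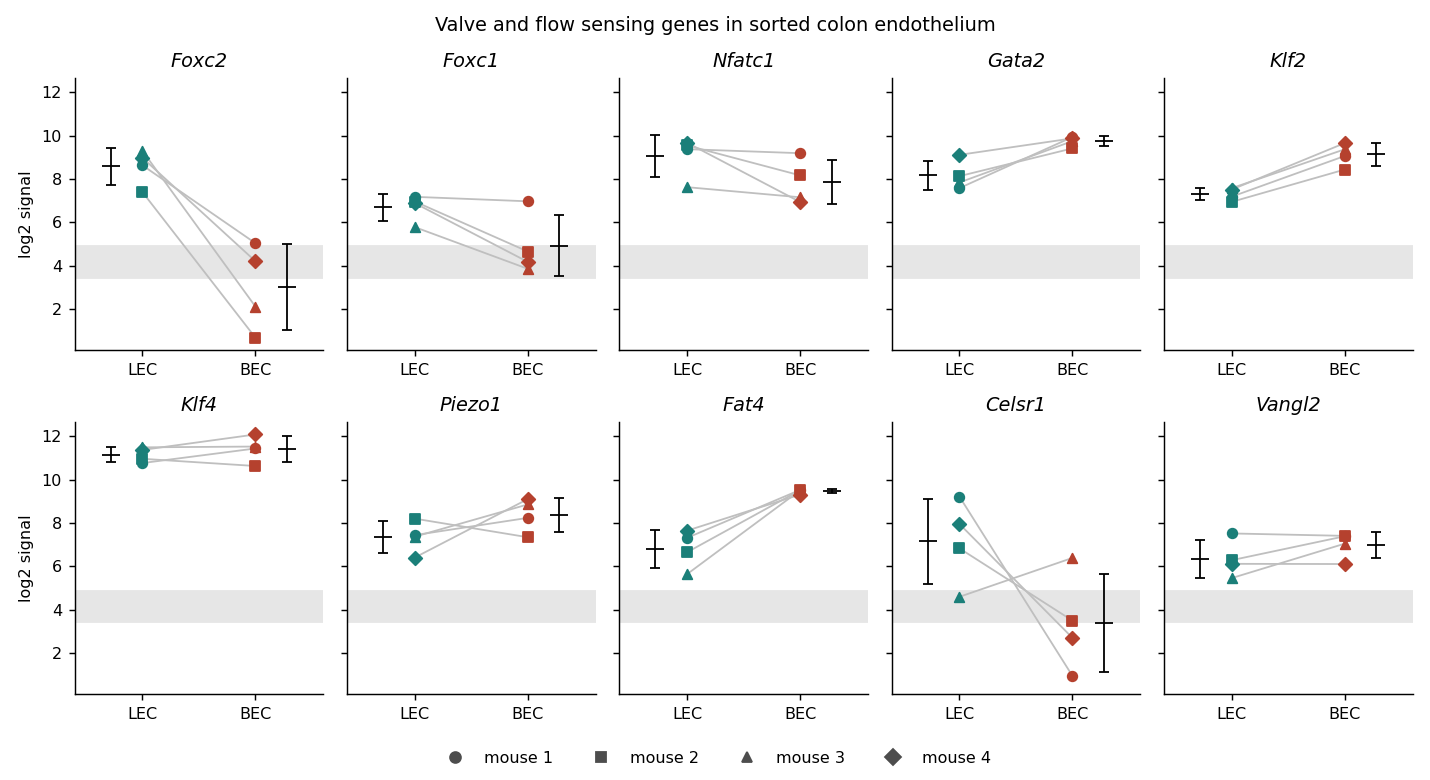
Log2 signal of the brightest probe set of each of the 10 genes on the 4 LEC (teal) and 4 BEC (red) arrays. Symbols mark the mouse, grey lines join the samples of a mouse, black bars are the mean ± SD (n = 4), and the grey band spans the background levels of the 8 arrays, 3.43 to 4.88. Foxc2 in LEC lies above all BEC arrays, and Gata2, Klf2 and Fat4 in LEC lie below all BEC arrays.

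Markers of the sorted cell types followed the labels. The labels rest on the stains of the sort, whose own targets are among these markers, so part of this was set in advance. All 10 pan-endothelial markers were above background on every array, with a summed level of 13.50 to 14.17 in LEC and 14.45 to 14.96 in BEC. Of these 10, 2 (Cdh5 and Esam) were called lower in LEC, against 2.31% of all genes. Of 7 lymphatic markers, 7 were above background on each LEC array and 2 to 7 on the BEC arrays, whereas of 7 blood endothelial markers, 2 to 4 were above background on the LEC arrays and 7 on each BEC array. Markers of other cells differed between arrays. Of 10 smooth muscle and pericyte markers, 2 to 6 were above background on LEC arrays and 4 to 8 on BEC arrays, and their summed level ran from 7.17 to 8.41 in LEC and from 9.73 to 10.58 in BEC on the log2 scale. Of the 6 tested, 1 (Rgs5) was called lower in LEC, against 2.31% of all genes. Of 10 fibroblast markers, 3 to 10 were above background on LEC arrays and 5 to 7 on BEC arrays, with sums of 8.80 to 13.36 in LEC and 8.00 to 8.74 in BEC. Of 12 epithelial markers, 6 to 10 were above background on LEC arrays and 9 to 12 on BEC arrays, with sums of 8.57 to 12.82 in LEC and 9.29 to 14.17 in BEC. The 9 leukocyte markers summed to 6.69 to 9.66 in LEC and 6.98 to 8.87 in BEC. Of 10 mast cell markers, 6 were below background on all 8 arrays (Cpa3, Mcpt1, Mcpt2, Mcpt4, Fcer1a and Ms4a2), and their sum was 5.93 to 8.25 in LEC and 6.41 to 7.75 in BEC. Of the 4 tested, 1 (Hdc) was called lower in LEC, against 2.31% of all genes.

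Among the transcription factors, Foxc2, the forkhead factor that valve formation requires, had log2 signals of 8.63, 7.39, 9.29 and 8.97 in LEC of mice 1 to 4, against 5.03, 0.67, 2.10 and 4.20 in BEC. Every LEC array was above every BEC array, and within mice the difference ran from 3.60 to 7.19. Foxc2 averaged 8.57 ± 0.83 in LEC and 3.00 ± 1.98 in BEC (SD, n = 4 each). The difference was 5.57 ± 0.95 (SE), with a 95% interval of 3.53 to 7.61 and a limma adjusted p of 0.00341. Since 2 of the 4 BEC arrays were below their background, the ratio of means is given as at least 23.4-fold. This bound concerns background and not sampling, and the 95% interval starts lower, at 3.53 on the log2 scale. In such pooled cells, fewer Foxc2-expressing cells and less Foxc2 RNA per cell cannot be told apart. The fibroblast marker sum was 8.80, 13.36, 10.24 and 12.54 in LEC of mice 1 to 4, against 8.00 to 8.74 in BEC. The lowest LEC sum was thus close to the highest BEC sum. The part of fibroblast RNA in the Foxc2 difference was not tested.

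Foxc1, the closest relative of Foxc2 and a partner of it in vessel development, had 7.17, 6.96, 5.77 and 6.88 in LEC, against 6.96, 4.65, 3.85 and 4.17 in BEC. LEC was above BEC in all 4 mice, but BEC of mouse 1 lay within the LEC range. Its difference was 1.79 ± 0.80 (SE), with a 95% interval of 0.06 to 3.52 and an adjusted p of 0.325. The dimmer Foxc1 probe set was below background on all LEC arrays and above it on 3 BEC arrays, with an uncalled difference of -1.22.

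Nfatc1, the calcineurin-dependent factor that acts beside FOXC2 in the valve, had 9.37, 9.54, 7.62 and 9.67 in LEC, against 9.18, 8.16, 7.15 and 6.93 in BEC with its brightest probe set. LEC exceeded BEC in each mouse, by 0.19 to 2.73, and the ranges overlapped. The difference was 1.19 ± 0.64 (SE; 95% interval -0.18 to 2.57, limma adjusted p = 0.436). Of its 5 probe sets, a dim one that matches several Nfatc1 transcripts kept the groups apart, at 5.39, 4.46, 4.16 and 5.57 in LEC and 0.77, 2.71, 2.29 and 2.99 in BEC. Its BEC values were all below background, and its difference of 2.70 was not called (adjusted p = 0.185 over 28840 probe sets). This dim probe set passed the filter on low values through its LEC arrays alone, so its separation was largely set by the filter. The other 3 differed by 0.29, 0.97 and 1.58, none of them called.

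Gata2, a zinc finger factor needed for valve development and for endothelial identity, had 7.57, 8.13, 7.83 and 9.11 in LEC, against 9.93, 9.41, 9.74 and 9.87 in BEC. All LEC arrays were below all BEC arrays and the LEC values spread more, with a mean of 8.16 ± 0.67 in LEC and 9.74 ± 0.23 in BEC (SD, n = 4 each). The difference of -1.58 ± 0.46 (SE; 95% interval -2.57 to -0.59) had an adjusted p of 0.0822 and was not called. Without LEC of mouse 4, the highest of the LEC arrays, it was called (difference -1.89, adjusted p = 0.0439), and it stayed uncalled in 17 of 18 alternatives. The second Gata2 probe set overlapped between the groups (8.42, 6.95, 6.67 and 7.68 in LEC, 9.51, 8.37, 8.01 and 7.62 in BEC), with an uncalled difference of -0.95.

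**Figure D2:**
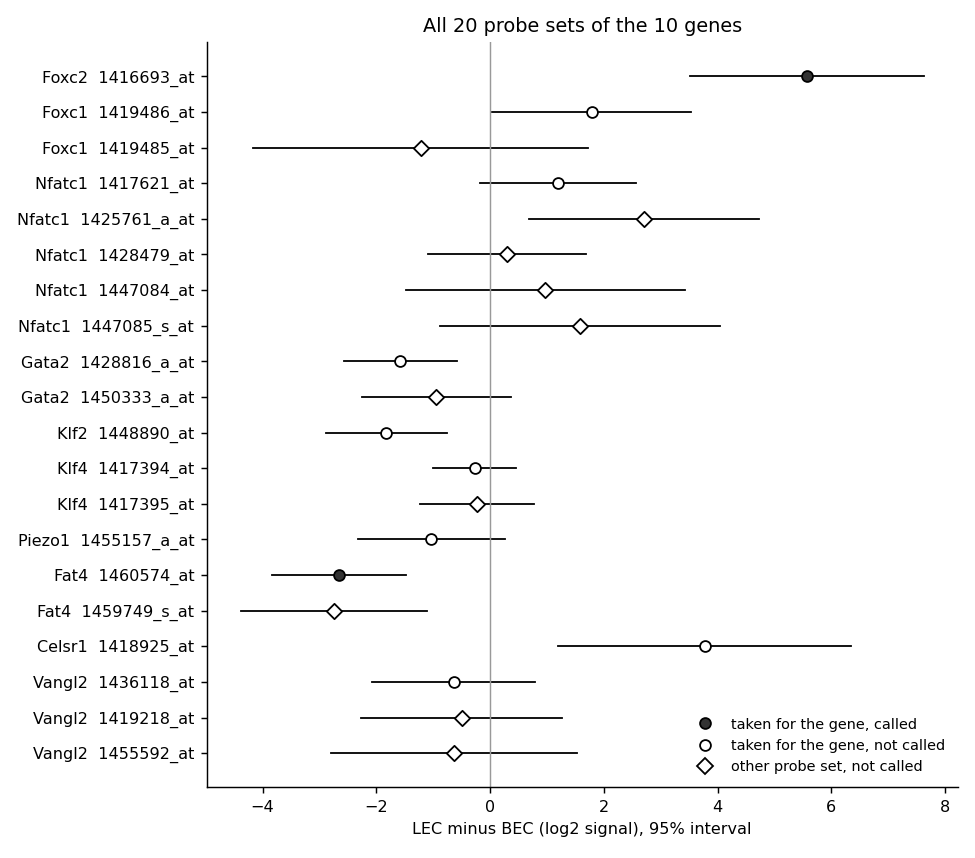
Difference LEC minus BEC in log2 signal for all 20 probe sets of the 10 genes, with 95% intervals from the limma fit over 28840 probe sets. Filled circles are probe sets taken for their gene and called, open circles are those taken and not called, and diamonds are further probe sets of the same gene; Foxc2 at 5.57 and the brighter Fat4 probe set at -2.65 are the called ones.

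At the level of probe sets, 2 of 20 were called, against 3.31% of all 28840 probe sets, and 6 of 20 kept the groups apart, against 9.22% of all. Among these 6, the dim Nfatc1 probe set passed the filter through its LEC arrays alone, so its separation is no support. Probe sets of 1 gene measure the same RNA and are not replicates. As deposited, every probe set had the same sign for Gata2, Klf4, Fat4 and Vangl2 (all negative) and for Nfatc1 (positive). The sign of the dimmest Foxc1 and Vangl2 probe sets rested on values below background: with values raised to background, the Foxc1 one moved to 0.20 (-1.22 as deposited) and the Vangl2 one to 0.28 (-0.63 as deposited).

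Among the flow sensing genes none was called, although Klf2 kept LEC and BEC apart. Klf2, the shear-induced factor that holds endothelium quiescent, had 7.18, 6.94, 7.57 and 7.51 in LEC, against 9.06, 8.43, 9.37 and 9.65 in BEC. All LEC arrays were below all BEC arrays and the difference within mice was even, from -2.15 to -1.49. Klf2 averaged 7.30 ± 0.29 in LEC and 9.13 ± 0.52 in BEC (SD, n = 4 each), a 3.55-fold difference. In the limma fit the difference of -1.83 ± 0.49 (SE; 95% interval -2.88 to -0.77) had an adjusted p of 0.0560, just outside the threshold. It stayed uncalled in 16 of 18 alternatives, with an adjusted p of 0.0692 with the mouse as a block and of up to 0.247. It was called under a stricter filter (9286 genes tested, adjusted p = 0.0407) and with the mean of each gene's probe sets (11829 genes tested, adjusted p = 0.0192). Klf2 has 1 probe set, so in these fits its own values were unchanged and only the other genes in the fit differed.

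Klf4, which shares many targets with KLF2, had 10.76, 10.96, 11.49 and 11.37 in LEC, against 11.44, 10.63, 11.52 and 12.08 in BEC. The ranges overlapped and mouse 2 had the higher value in LEC. The difference was -0.27 ± 0.33 (SE; 95% interval -0.99 to 0.45, limma adjusted p = 0.790), and over the alternatives it ran from -0.73 (equal hybridisation controls) to -0.051 (without BEC of mouse 4). The second Klf4 probe set gave -0.23.

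Klf2 and Klf4 are both immediate responders to mechanical and other stimuli, and the immediate early genes that dissociation of tissue can induce are given beside them. The summed level of 16 such genes ran from 13.29 to 14.04 in LEC and from 14.02 to 14.47 in BEC. Of the 16, 1 was called, against 4.07% of all genes. It was Zfp36 (9.52 ± 0.19 in LEC and 11.86 ± 0.58 in BEC, difference -2.34, limma adjusted p = 0.00121). The part of dissociation in the Klf2 values was not tested.

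The promoter windows of the Klf genes are shown because both genes are targets of MEF2 factors. Each window runs from 250 bases before to 50 bases after the transcription start, 5′ to 3′ on the strand of the gene, as given by RefSeq for GRCm38.p6: Klf2 at chr8:72318812-72319111 (plus strand) and Klf4 at chr4:55532426-55532725 (minus strand). Capitals mark matches to the MEF2 motif and to CCACCC, a core that KLF factors bind, read on both strands.
Klf2: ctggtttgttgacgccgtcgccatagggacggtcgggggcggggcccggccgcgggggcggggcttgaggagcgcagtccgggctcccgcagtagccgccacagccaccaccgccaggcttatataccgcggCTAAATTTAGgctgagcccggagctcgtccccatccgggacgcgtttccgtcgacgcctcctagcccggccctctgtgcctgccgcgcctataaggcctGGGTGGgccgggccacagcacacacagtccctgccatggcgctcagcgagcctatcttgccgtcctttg
Klf4: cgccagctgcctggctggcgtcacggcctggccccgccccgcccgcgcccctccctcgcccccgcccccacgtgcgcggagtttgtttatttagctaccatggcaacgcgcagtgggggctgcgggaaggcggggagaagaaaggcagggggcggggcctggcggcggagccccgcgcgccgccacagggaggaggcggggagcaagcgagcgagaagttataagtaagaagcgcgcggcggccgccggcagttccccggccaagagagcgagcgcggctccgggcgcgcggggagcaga
The Klf2 window holds 1 MEF2 match, CTAAATTTAG, at -118 to -109 from the start, and 1 CCACCC match on the reverse strand at -19 to -14, which do not overlap. The Klf4 window holds neither. Over all 32851 windows of this length, 3.19% hold a MEF2 match and 31.5% a CCACCC match. Windows were used for 7 of the 10 genes (8 windows, since Gata2 has a pair of starts), and the other 7 windows hold neither of these motifs. No window was used for Foxc2, Nfatc1 or Celsr1, so these genes were not searched. Windows on 1 chromosome were left out for the 10 genes but not for the shares over all windows. None of the 8 windows holds AGATAA, the core that GATA factors bind, found in 11.2% of all windows, or TGTTTAC, a core of forkhead sites found in 3.65%. The 8 windows have 55.7% to 75% G and C, against a median of 52.7% over all windows. A match describes letters in this window and not binding, and its relation to the LEC and BEC values was not tested.

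Piezo1, the stretch-gated cation channel, had 7.44, 8.20, 7.37 and 6.40 in LEC, against 8.23, 7.34, 8.85 and 9.10 in BEC. LEC was below BEC in 3 of 4 mice, mouse 2 being the exception. The difference was -1.03 ± 0.59 (SE; 95% interval -2.31 to 0.25, limma adjusted p = 0.479), and without both arrays of mouse 4 it was -0.47. Piezo2, the related channel known from touch-sensing neurons, had 9.10, 10.10, 10.30 and 11.30 in LEC, against 7.54, 7.24, 7.02 and 9.01 in BEC. All LEC arrays were above all BEC arrays, and Piezo2 was called higher by 5.65-fold (difference 2.50 ± 0.58, adjusted p = 0.0260). That call was lost in 7 of 9 fits that left arrays out (all but those without LEC of mouse 1 or BEC of mouse 4, adjusted p from 0.0501 to 0.0934) and under equal array medians or equal hybridisation controls (adjusted p up to 0.228), and its second probe set, with a difference of 2.94, was not called.

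Among the polarity genes, Fat4, the atypical cadherin that in mice shapes lymphatic endothelial polarity under flow, was lower in LEC. Its values were 7.31, 6.65, 5.64 and 7.64 in LEC, against 9.52, 9.51, 9.51 and 9.31 in BEC. BEC values were nearly equal across mice while LEC values spread over 2 log2 units, all of them below BEC. Fat4 averaged 6.81 ± 0.89 in LEC and 9.46 ± 0.10 in BEC (SD, n = 4 each). The difference was -2.65 ± 0.54 (SE), with a 95% interval of -3.82 to -1.49 and a limma adjusted p of 0.0122, or 6.29-fold lower in LEC. The second Fat4 probe set, whose name marks probes that may also detect other genes, had 3.56, 6.61, 4.81 and 6.52 in LEC and 8.19, 8.74, 7.62 and 7.92 in BEC. It too kept the groups apart, and its difference of -2.74 ± 0.76 (SE) had an adjusted p of 0.0735 over all probe sets. In that fit over probe sets, the brighter one was called at an adjusted p of 0.0138, and not without BEC of mouse 2 (0.0537). Smooth muscle and pericyte markers were also lower in LEC in sum, as given above, and their part in the differences of Fat4, Gata2 and Klf2 was not tested.

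The Fat4 promoter window is shown for the called polarity gene, at chr3:38886690-38886989 on the plus strand, in the same build and span as above. It holds none of the 4 motifs, so it has no capitals.
Fat4: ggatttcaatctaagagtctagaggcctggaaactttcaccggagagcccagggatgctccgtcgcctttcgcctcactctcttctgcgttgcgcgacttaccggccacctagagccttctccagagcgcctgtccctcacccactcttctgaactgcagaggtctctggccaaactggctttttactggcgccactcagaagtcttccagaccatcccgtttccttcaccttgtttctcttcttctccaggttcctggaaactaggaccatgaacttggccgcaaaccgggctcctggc

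Celsr1, the seven-pass cadherin that bridges neighbouring cells in planar polarity and is needed for valves in mice, had 9.21, 6.83, 4.59 and 7.95 in LEC, against 0.94, 3.49, 6.39 and 2.69 in BEC. LEC was far above BEC in mice 1, 2 and 4, whereas in mouse 3 LEC was below BEC. Celsr1 averaged 7.15 ± 1.96 in LEC and 3.38 ± 2.27 in BEC (SD, n = 4 each), and 2 BEC arrays were below background. The difference of 3.77 ± 1.20 (SE; 95% interval 1.19 to 6.35) had a limma adjusted p of 0.119 and was not called. Without LEC of mouse 3 it was 4.62 and called (adjusted p = 0.0454), as it was without BEC of mouse 3 (4.77, adjusted p = 0.0374). It stayed uncalled in 16 of 18 alternatives. The epithelial marker sum was highest in mouse 3 within each cell type (12.82 in LEC, 14.17 in BEC). Celsr1 in mouse 3 was the lowest of the LEC arrays and the highest of the BEC arrays, and the part of epithelial RNA in it was not tested.

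Vangl2, the membrane partner of CELSR1 in planar polarity, had 7.51, 6.28, 5.45 and 6.11 in LEC, against 7.40, 7.38, 7.04 and 6.10 in BEC. The groups overlapped and in mice 1 and 4 the values were nearly equal. The difference was -0.64 ± 0.66 (SE; limma adjusted p = 0.730), -0.35 without LEC of mouse 3 and -1.03 without LEC of mouse 1, and the other 2 probe sets gave -0.50 and -0.63. Its relative Vangl1 differed by -0.28 (adjusted p = 0.908), and Dchs1, the cadherin that FAT4 binds, by -1.42 (adjusted p = 0.551).

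Pairs of related genes were set against each other within each array by their brightest probe sets. The 3 pairs were chosen after the values were seen, so the values are a description with no test. A difference between 2 probe sets has no meaning as a level, and only its change between cell types is read. Foxc2 minus Foxc1 stood at 1.88 ± 1.29 in LEC and -1.91 ± 1.64 in BEC (SD, n = 4 each), apart by 3.78, or by 2.76 with values raised to background. Klf2 minus Klf4 stood at -3.85 ± 0.19 in LEC and -2.29 ± 0.13 in BEC, a difference of -1.56. All 4 mice had the same direction in both of these pairs. Celsr1 minus Vangl2 stood at 0.81 ± 1.26 in LEC and -3.61 ± 2.38 in BEC, apart by 4.41, or by 3.33 with values raised to background, with the direction shared by 3 of 4 mice.

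**Figure D3:**
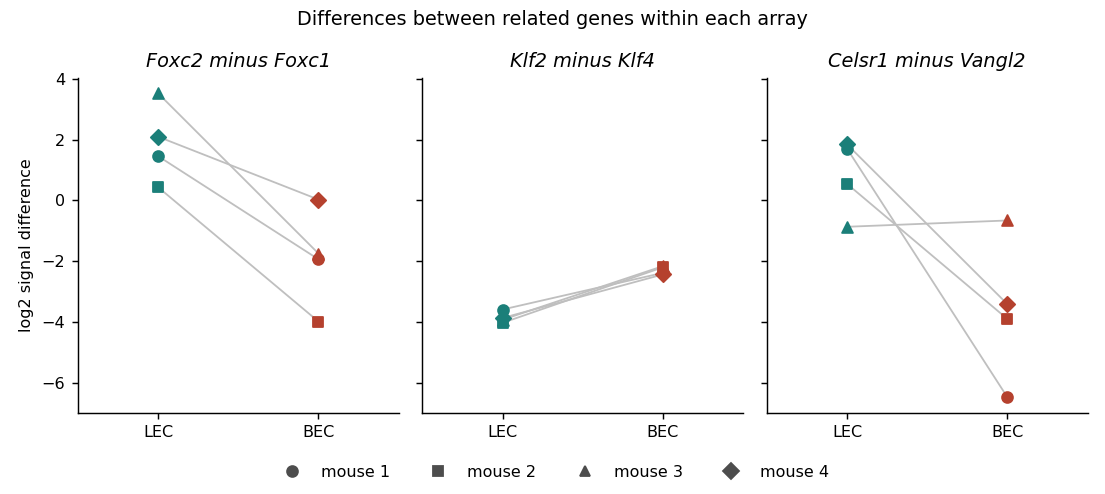
Difference in log2 signal between related genes on each array, with LEC in teal and BEC in red, symbols for the mouse and lines joining the samples of a mouse. Klf2 minus Klf4 falls into narrow groups (SD 0.19 in LEC and 0.13 in BEC), whereas Celsr1 minus Vangl2 has mouse 3 running against the other mice.

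Genes that work with these 10 were read from lists written from textbook knowledge, with earlier results of these data known. Prox1 and Nrp1 are also among the lymphatic and blood endothelial markers used above, and Cdh5 is among the pan-endothelial ones. The shares called in these lists are therefore a description and no independent support. Of 26 tested valve partners, 4 were called higher and 2 lower in LEC, against 1.76% and 2.31% of all genes, and the median difference was 0.13, against 0.08 over all genes. The higher ones were Prox1, the lymphatic identity factor (at least 164-fold, adjusted p = 7.02e-06), Itga9, the integrin that binds fibronectin in the valve leaflet (10.96 ± 0.59 in LEC and 7.89 ± 0.73 in BEC, 8.39-fold, adjusted p = 0.0018), Sema3a, a repulsive ligand (at least 48.9-fold, adjusted p = 2.13e-04), and Cldn11, a tight junction protein (at least 12.2-fold, adjusted p = 0.0196). The lower ones were Nrp1, a receptor of semaphorins (at least 82.7-fold, adjusted p = 8.56e-05), and Lama5, a laminin chain (4.36 to 6.32 in LEC and 8.67 to 9.40 in BEC, 11.8-fold, adjusted p = 0.00306). The Cldn11 call was lost without LEC of mouse 2, LEC of mouse 4 or BEC of mouse 2 (adjusted p from 0.0523 to 0.0577) and without the intensity trend, and the Lama5 call with the mean of its probe sets.

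Of 32 tested genes of shear sensing and response, 1 was called higher (Piezo2) and 4 lower in LEC, against 1.76% and 2.31% of all genes, with a median of -0.65. Edn1, the vasoconstrictor endothelin, had 5.09 ± 0.62 in LEC and 8.74 ± 0.22 in BEC and was at least 11.2-fold lower (adjusted p = 0.00221). Dach1, a transcription cofactor of artery growth, was lower by at least 6.19-fold, with an adjusted p of 0.0131, and below background on all LEC arrays. Heg1, a receptor of the CCM complex, was lower by at least 5.23-fold (adjusted p = 0.0437, or 0.0525 with the mouse as a block), a call kept in 3 of 18 alternatives. Cdh5, the junctional cadherin, was lower (difference -1.18 ± 0.27, adjusted p = 0.0252). Leaving out arrays ended the Heg1 call in 8 of 9 fits (all but that without LEC of mouse 4, adjusted p from 0.0624 to 0.133). It ended the Cdh5 call without LEC of mouse 3, BEC of mouse 1, 2 or 4, or both arrays of mouse 4 (0.0610 to 0.107), the Dach1 call without BEC of mouse 2 or both arrays of mouse 4 (0.0706 and 0.0950), and the Edn1 call in no fit. Mef2c, one of the MEF2 factors, differed by -0.77 (adjusted p = 0.471).

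Of 16 tested planar cell polarity genes, 2 were called higher and none lower in LEC, against 1.76% and 2.31% of all genes, with a median of 0.29. Ankrd6, the diversin protein of planar polarity, had 7.25 ± 1.46 in LEC and 1.39 ± 2.00 in BEC, at least 11.7-fold higher (adjusted p = 0.00712). Its BEC values were all below background, and without single arrays the bound ran from 8.16 to 18.3. Passing the filter on low values thus rested largely on its LEC arrays, so the filter favoured this separation. With the mean of its probe sets, Ankrd6 did not pass the filter and was not tested. Wnt5a, a ligand of the pathway, was higher by at least 3.88-fold (adjusted p = 0.0163), but its call was lost without LEC of mouse 3 or of mouse 4 (0.0640 and 0.0543) and with the mean of its probe sets. Fibroblasts also express Wnt5a. Fibroblast markers were higher in sum in LEC as given above, though the lowest LEC sum was close to the highest BEC sum. Of 9 tested fibroblast markers, 1 (Fbln1) was called higher, against 1.76% of all genes. The part of fibroblast RNA in the Wnt5a difference was not tested.

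Of 19 tested genes of calcineurin and NFAT signalling, 1 was called lower and none higher, a share near the 4.07% called over all genes, with a median of -0.48. It was Rcan2, a calcineurin regulator (at least 8.58-fold lower, adjusted p = 0.0137), whose call was lost without BEC of mouse 4 (0.0528) and without both arrays of mouse 4 (0.126). Nfatc2, Nfatc3 and Nfatc4, the further calcineurin-dependent factors, differed by 1.33, -0.25 and -0.70, none of them called. Of 19 tested relatives of the transcription factors, 1 was called lower, the forkhead factor Foxf1 (6.05 ± 1.38 in LEC and 9.04 ± 0.19 in BEC, 7.94-fold, adjusted p = 0.0234), again a share near the 4.07% over all genes. That call was lost in 7 of 9 fits that left arrays out (adjusted p from 0.0527 to 0.151, all but those without LEC of mouse 1 or LEC of mouse 3), and a second Foxf1 probe set differed by -0.50. Gata6 differed by -0.68 and Klf6 by 0.55, neither called, and Gata3 was below background on all 8 arrays.

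**Figure D4:**
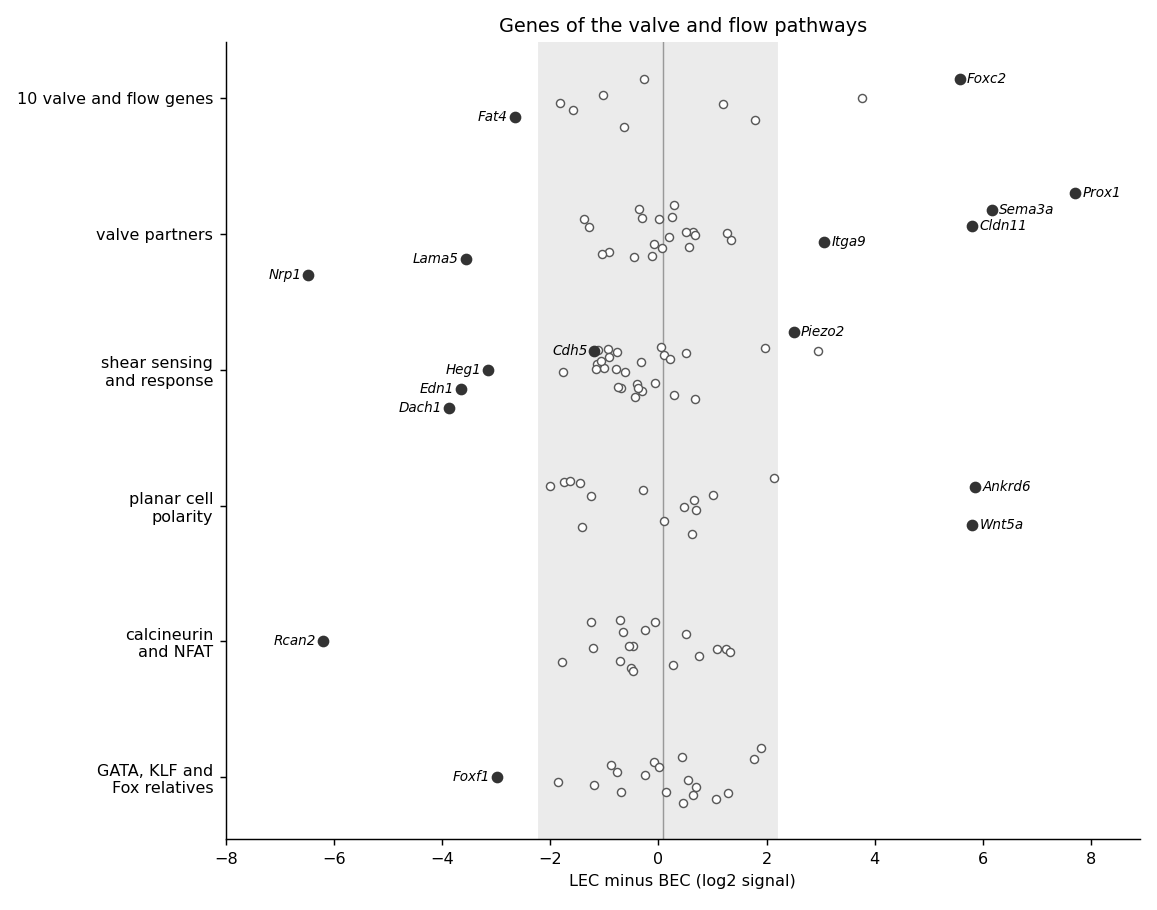
Difference LEC minus BEC in log2 signal for the tested genes of each list, in rows, with called genes filled and named. The grey band spans the 5th to the 95th percentile of all genes tested (-2.21 to 2.19) and the line marks their median of 0.08; vertical position within a row has no meaning. Foxc2 and Fat4 are the called genes of the top row.

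Likeness of pattern was described by Pearson's r over the 8 arrays with the other tested genes. All arrays share the split into LEC and BEC, which by itself can give a high r, and no p is given. The patterns most like Fat4 were those of Aplnr, the apelin receptor (r = 0.989), Fgd5 (0.989) and Vwa1 (0.986). For Foxc2 they were Adam33 (0.975), Scd2 (0.972) and Tgm2 (0.971), for Klf2 Usp47 (0.981), 4930562F07Rik (0.971) and Ptprb (0.968), and for Gata2 Clpb (0.993), Socs3 (0.991) and Itga6 (0.981). Celsr1 was closest to Zfp580 (0.955), Dapk2 (0.949) and Krt88 (0.949), and Foxc1 to Mir138-2 (0.991), Ehbp1 (0.991) and Aifm3 (0.984). Nfatc1 was closest to 1110051M20Rik (0.985), Flot2 (0.965) and AI854703 (0.954), and Piezo1 to Myo1d (0.970), 2010315B03Rik (0.950) and Hdac5 (0.912). Klf4 was closest to Usp32 (0.995), Pabpc1 (0.952) and Dyrk2 (0.950), and Vangl2 to Serpina1b (0.983), Uncx (0.965) and Dgka (0.964).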

How the data were processed

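The deposited table holds log2 values that the authors made, 1 column per array for 45101 probe sets. The submitters' processing notes name MAS5, without a version. The log2 scale was read from the values, whose linear 2% trimmed mean is 100.04 on each array, which takes total signal to be equal between samples. Values were tested as deposited, with no pseudocount. A summed level is the log2 of the added linear signals of a list, 1 probe set a gene, with values under background included. Array medians lay between 4.03 and 4.75 in LEC and between 3.85 and 4.40 in BEC.

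Of the probe sets, 34945 had 1 gene in the platform annotation, 932 several and 9160 none. Each gene was read from its brightest probe set on average, kept where 4 or more of the 8 arrays had it above their 40th percentile. A gene dim in 1 cell type can pass this filter through the other cell type alone, which favours separation. A limma 3.58.1 fit (R 4.3.3, eBayes with trend) covered these 13259 genes, cell type being the only term, and 28840 probe sets were fitted likewise. This code was tested on simulated data with 50 changed genes for each size of difference. It called 2% of differences of 1 on the log2 scale, 14% of 2, 56% of 4 and 76% of 6. A gene not called may thus still differ by such amounts. Background is the 95th percentile of 27 Bacillus subtilis control probe sets on each array, set after seeing the data. Where the dimmer group had an array under it, both groups were raised to it and the ratio is given as "at least". Such a bound on the ratio of means concerns background and not sampling. The number of arrays limits the precision.

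LEC and BEC samples of the same number come from the same mouse, per the labels and the series design. The correlation of their deviations from the group means was 0.142, 0.0776, 0.181 and 0.0510 for mice 1 to 4. The alternatives were the mouse as a block, other scalings, filters and probe set rules, no trend, and arrays left out. The genes and lists were chosen with earlier results of these data known. Genes named are the 10 themselves, every called gene of the 5 pathway lists, Piezo2, Vangl1, Dchs1, Nfatc2, Nfatc3, Nfatc4, Gata3, Gata6, Klf6 and Mef2c whatever their result, and the 3 genes most like each of the 10; Zfp36, Fbln1, Rgs5, Hdc and Esam were named after their values were seen, as called genes of their lists. Promoter windows came from RefSeq and were used for 7 of the 10 genes (all but Foxc2, Nfatc1 and Celsr1), with windows on 1 chromosome left out.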

Additional observations from a re-analysis of the deposited data

Results flagged for a closer look

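In 2 of 40 groups of 4 arrays (20 probe sets in 2 cell types), 1 array stood apart from the other 3, and chance alone flags about 5% of such groups. The brightest Nfatc1 probe set had 7.62 in LEC of mouse 3, below the 9.37 to 9.67 of the other LEC arrays. The brighter Fat4 probe set had 9.31 in BEC of mouse 4, below the 9.51 to 9.52 of the other BEC arrays, a gap of 0.20 log2 units in a group with an SD of 0.10.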

How the results depend on the processing

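Foxc2 remained called higher and Fat4 called lower in LEC under all 18 alternatives. A replicate block for the mouse gave adjusted p-values of 0.00545 for Foxc2 and 0.0294 for Fat4, 534 genes were called in place of 540, and the block changed no call among the 10 genes. The count of all genes called ran from 268 to 556 with arrays left out, the lowest without both arrays of mouse 4 and 352 without BEC of mouse 2. Equal array medians gave 162 higher and 336 lower and equal hybridisation controls 118 and 304, against 234 and 306, as the median difference moved to -0.20 and -0.38, so signs are relative to the scaling. Of the 10 genes, those called higher ran from 1 to 2 with arrays left out. Celsr1 joined at 4.62 without LEC of mouse 3 and at 4.77 without BEC of mouse 3. The Celsr1 difference over all fits with arrays left out ran from 2.96 to 4.77. Those called lower also ran from 1 to 2, as Gata2 joined at -1.89 without LEC of mouse 4. The Gata2 difference over all fits with arrays left out ran from -1.89 to -1.38. Those called lower were 2 with the stricter filter and with the mean of probe sets, where Klf2 joined at -1.83. The shear list had 5 calls, and 3 under equal medians, 3 under quantile normalization, 2 under hybridisation controls, 2 without the trend and 1 to 5 with arrays left out. The polarity list had 2 calls, and 1 under the stricter filter, 0 with the mean of probe sets and 1 to 2 with arrays left out. The calcineurin list had 1 call, 2 with the mean of probe sets and 0 to 1 with arrays left out. The list of relatives had 1 call, 2 under the stricter filter, 0 with the mean of probe sets, 2 with values raised to background, 0 without the trend and 0 to 1 with arrays left out. Among named pathway genes, calls ended for Piezo2, Cdh5, Heg1, Cldn11 and Foxf1 without the trend, for Lama5, Dach1, Wnt5a and Foxf1 with the mean of probe sets, for Dach1 under quantile normalization, for Piezo2 under equal medians, for Piezo2 and Cdh5 under equal hybridisation controls, and for Heg1 in all but 3 of its 18 alternatives, among them every other scaling, no filter and values raised to background. The cause was not tested. Over all alternatives, the uncalled differences ran from 0.28 to 2.47 for Foxc1, 0.68 to 1.67 for Nfatc1, -1.49 to -0.47 for Piezo1 and -1.10 to -0.35 for Vangl2. Signs turned only in uncalled differences. With arrays left out, Gata6 ran from -1.30 to 0.087 (highest without LEC of mouse 2), Nfatc2 from -0.16 to 2.54 (lowest without both arrays of mouse 4), LEC minus BEC of Nfatc3 from -0.74 to 0.0089 (highest without both arrays of mouse 4, and 0.00268 without BEC of that mouse) and Vangl1 from -0.69 to 0.25 (highest without LEC of mouse 3), and Vangl1 was 0.58 with the mean of probe sets. The dimmer Klf4 probe set ran from -0.55 to 0.17 (above 0 without BEC of mouse 4), and 1 of Vangl2 from -0.84 to 0.070 (above 0 without either array of mouse 3). Of the Nfatc1 probe sets, 1 ran from -0.20 to 0.75 (below 0 without BEC of mouse 4) and 1 from -0.21 to 1.70 (below 0 without BEC of mouse 3). Signal over background limits Foxc2 and Celsr1 in BEC.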
